A study of Mus musculus with 8 samples.

Results

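The D-type cyclins, the Cdk inhibitors and the Myc genes decide together whether a cell leaves G1 and divides. In these data they are 10 genes, Ccnd1, Ccnd2, Ccnd3, Cdkn1a, Cdkn1b, Cdkn2a, Cdkn2b, Cdkn2c, Myc and Mycn, chosen by symbol and matched by Ensembl identifier to 10 of the 53801 genes in the deposited count table. All 10 were found. The rule names the genes by their function and uses no measured value, though it was set when earlier results of these data were known.

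The RNA came from Paneth cells, the granule-filled secretory cells of the small intestinal crypt base, sorted as viable EpCAM+ Cd24+ cells at 300 cells per sample. The 4 controls were β-catenin GOF; Mll1+/- mice and the 4 knockouts were β-catenin GOF; Mll1-/- mice. Every mouse carried the β-catenin gain-of-function allele, in which loss of an exon stabilizes β-catenin, and Lgr5-EGFP-IRES-CreERT2, which drives the inducible Cre in Lgr5+ stem cells. Controls had 1 floxed Mll1 allele and knockouts had both. Mutagenesis was induced in mice of both sexes at 4 to 6 weeks of age by 1 mg tamoxifen given intraperitoneally on 3 successive days, and cells were sorted 10 d later. There was no Mll1 wild-type group and no group without β-catenin GOF among these 8 libraries, although the study's sorting methods name Mll1 flox littermates without the GOF allele. Recombination by this Cre is mosaic between crypts, and the sort had no gate for recombined cells. The study checked Mll1 protein in crypts of these mice by immunohistochemistry, which was not analysed here. The libraries are called controls 1 to 4 and knockouts 1 to 4, and the numbers pair no samples.

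The β-catenin pathway feeds into this gene group, since Myc and Ccnd1 are textbook Wnt targets in the intestine. D-type cyclins bind Cdk4 and Cdk6 and start the phosphorylation of Rb, which frees E2f factors to switch on DNA replication genes. The Ink4 proteins, encoded by Cdkn2a, Cdkn2b and Cdkn2c, block Cdk4 and Cdk6, while the Cip/Kip proteins encoded by Cdkn1a and Cdkn1b act mainly on Cdk2 complexes. Myc and Mycn are transcription factors that raise ribosome production and growth. Paneth cells are post-mitotic. Mll1, encoded by Kmt2a, methylates histone H3 at lysine 4 and has a CXXC domain that binds unmethylated CpG dinucleotides.

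The totals of the 8 libraries lay between 13037832 and 14380240 counts. Knockout 3 stood apart, with counts on 19662 genes and the others on 22623 to 26074, with a TMM scaling factor of 0.632 against 0.822 to 1.34. All 11 Paneth cell markers were detected in every library, with a summed level of 264300 to 744700 CPM (counts scaled to a common, TMM-adjusted library size), the highest being knockout 3. These CPM are not shares of the reads, and the low scaling factor of knockout 3 raises its values. The counts of Kmt2a, summed over all its exons, ranged from 268 to 719 in the controls and from 328 to 523 in the knockouts, so the total count of the targeted gene did not separate the groups. Control libraries 1 and 2 and knockouts 1 and 2 carry 1 run of label numbers, called library set 1 here, and the other 4 carry another, called set 2.

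Cdkn2a and Cdkn2b are neighbours on chromosome 4, their counted gene spans 11635 bases apart, and their counts differed in every library. Cdkn2b received 25 to 78 counts in every library. Cdkn2a, whose 2 starts lead to p16Ink4a and, from the outer start, p19Arf, received at most 1 count in any library. Because Mll1 binds CpG, the bases before the RefSeq starts of both genes are shown with each CpG in capitals, on the minus strand of GRCm38.p6 and read 5′ to 3′.
Cdkn2a inner start, chr4:89282193-89282442: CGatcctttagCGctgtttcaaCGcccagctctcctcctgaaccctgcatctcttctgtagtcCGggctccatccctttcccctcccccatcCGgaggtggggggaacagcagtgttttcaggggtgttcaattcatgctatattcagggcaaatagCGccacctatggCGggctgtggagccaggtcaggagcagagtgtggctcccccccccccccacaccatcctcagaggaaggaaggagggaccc
Cdkn2a outer start, chr4:89294654-89294869: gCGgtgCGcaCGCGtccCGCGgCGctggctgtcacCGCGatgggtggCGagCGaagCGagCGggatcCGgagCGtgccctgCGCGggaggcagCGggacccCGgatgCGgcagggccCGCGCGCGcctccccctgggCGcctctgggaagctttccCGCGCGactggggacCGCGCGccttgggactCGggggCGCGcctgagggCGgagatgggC
Cdkn2b, chr4:89311033-89311282: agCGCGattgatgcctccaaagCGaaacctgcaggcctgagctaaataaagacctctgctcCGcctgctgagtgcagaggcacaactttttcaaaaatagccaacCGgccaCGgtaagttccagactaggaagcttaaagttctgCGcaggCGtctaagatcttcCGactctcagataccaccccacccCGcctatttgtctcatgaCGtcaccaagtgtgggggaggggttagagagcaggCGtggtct
The inner Cdkn2a start, which lies in an intron of the p19Arf transcript, had 7 CpG in its 250 upstream bases, and 46.3% of the 32841 RefSeq windows of this length had at least as many. The outer start had 40 CpG in 250 bases, of which 35 lie in the 216 bases shown, the rest being inside the counted gene or at its edge. Only 1.31% of all windows had 40 or more. The Cdkn2b window had 12, reached by 33.5% of windows. Of the 10 members 7 had RefSeq windows, 11 in all, with 2 to 40 CpG, and 9 of the 11 were above the median of 6 for all windows, against 46.3% of all windows. The most abundant member, Cdkn1a, had 2 CpG before its outer start and 19 before its inner one, and Cdkn1b had 28. CpG number is a feature of the sequence alone here, since neither methylation nor Mll1 binding was measured in these libraries.

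The question put to the 8 libraries was whether complete loss of Mll1, against loss of 1 copy, changed these genes in Paneth cells that carry active β-catenin. Of the 10 members 8 passed the filter on low counts, and none of the 8 was past both cutoffs (adjusted p up to 0.05 together with an absolute log2 fold change from 0.5 upwards, edgeR quasi-likelihood test). Over all 13439 genes tested, 0.186% were, 0.156% higher and 0.0298% lower in the knockouts. At 10% false discovery rate with no limit on the fold there was again no member, against 0.283% of all genes. An unadjusted p under 0.05 was reached by none of the 8, against 6.88% of all genes. DESeq2's Wald test put 138 genes and limma-voom 95 past both cutoffs, with no member among them, and limma-voom gave 1 member, Cdkn2b, an unadjusted p under 0.05. The control and knockout values overlapped for all 8, while the groups did not overlap for 4.52% of all genes. Of the 8, 5 had a negative and 3 a positive estimate, with a median log2 fold change of -0.28, against 0.01 over all tested genes. Without knockout 3 the median was -0.17.

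**Figure D1:**
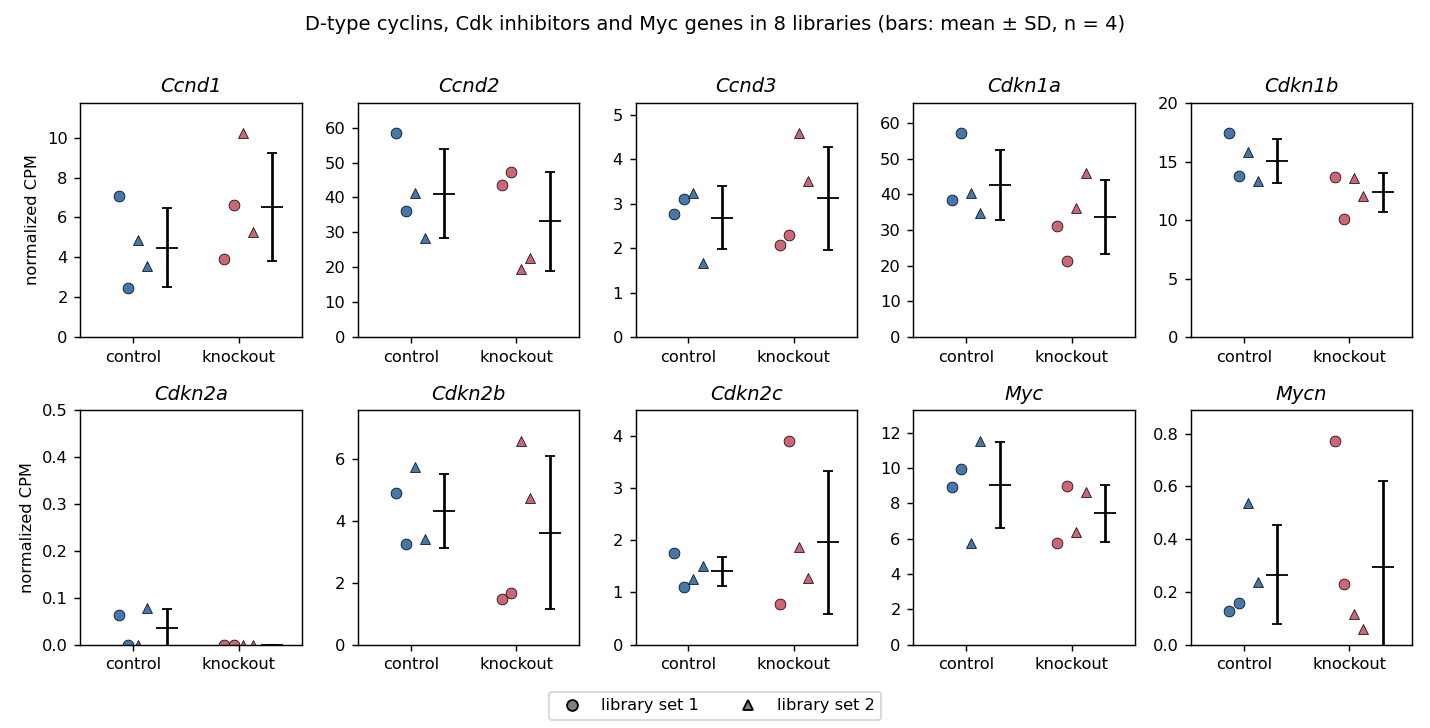
Normalized CPM (vertical axes, each from 0) of the 10 members in the 4 controls (blue) and 4 knockouts (red), with circles for library set 1, triangles for set 2 and bars for mean ± SD. The points of the 2 genotypes overlap in each of the 8 tested genes, and Cdkn2a has no knockout value above 0.

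Ccnd2 was the main D-type cyclin, and its RNA made up 71.5% ± 12.9 (SD, n = 8) of the D-type cyclin counts per kilobase of exon. Ccnd1 made up 22.0% ± 10.8 and Ccnd3 6.47% ± 2.84. By raw counts, without the division by length, the mean shares were 80.2%, 12.9% and 6.97%. Among the controls the Ccnd2 share was nearly the same in each mouse, at 77.3%, 81.4%, 75.9% and 76.2%. Knockouts 1 and 2 lay within or near this range at 81.2% and 75.2%, and knockouts 3 and 4, both of set 2, lay below it at 43.5% and 61.3%. The Ccnd1 share went the other way, at 11.1% to 19.0% in the controls and 14.7%, 20.9%, 45.6% and 28.5% in knockouts 1 to 4. Knockout 3, the library with few detected genes, was the only one in which Ccnd1 exceeded Ccnd2 per kilobase. Without it the mean Ccnd2 share of the knockouts was 72.5% in place of 65.3% ± 16.8, against 77.7% ± 2.54 in the controls. The difference in shares was not tested.

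**Figure D2:**
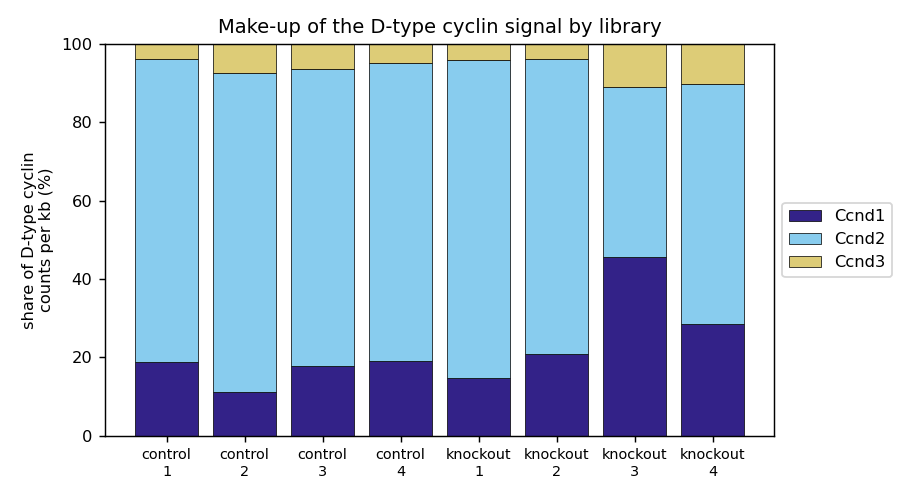
Share of Ccnd1, Ccnd2 and Ccnd3 in the summed D-type cyclin counts per kilobase (vertical axis, percent) in each of the 8 libraries. Ccnd2 holds 75.9% to 81.4% in the controls and 43.5% in knockout 3, where Ccnd1 reaches 45.6%.

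Ccnd2 (ENSMUSG00000000184, chromosome 6 from 127125162 to 127152193, mm10) measured 58.4, 36.0, 41.4 and 28.4 normalized CPM in controls 1 to 4 and 43.4, 47.4, 19.5 and 22.6 in knockouts 1 to 4. The 2 low knockouts were those of set 2, whose controls were at 41.4 and 28.4, and the groups overlapped. Control libraries averaged 41.0 ± 12.7 CPM and knockouts 33.2 ± 14.2 (SD, n = 4 each), for a log2 ratio of -0.30 in the fit (95% interval -0.98 to 0.38, adjusted p = 0.943, edgeR). With limma-voom the estimate was -0.0032 and with a Y-linked covariate -0.56. Within set 1 the log2 ratio of knockout to control means was -0.06 and within set 2 it was -0.73. Set 2 was the lower one for this gene, with 19.5 to 41.4 CPM against 36.0 to 58.4.

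Ccnd1 (ENSMUSG00000070348, chromosome 7 from 144929931 to 144939925) had the largest positive estimate of the members. It measured 7.08, 2.46, 4.85 and 3.55 CPM in controls and 3.92, 6.60, 10.2 and 5.28 in the knockouts. Knockout 3 was the highest, but control 1 exceeded the other 3 knockouts. The log2 fold change was 0.52 (standard error 0.39, 95% interval -0.33 to 1.37, adjusted p = 0.90, edgeR), which became 0.23 without knockout 3 and 0.84 without control 1. Of the exon bases of Ccnd1, 23.4% overlap LTO1 on the other strand, and as the strand setting of the counting is not given in the sources used here, reads of the 2 genes in that stretch cannot be told apart.

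Ccnd3 (ENSMUSG00000034165) was the lowest D-type cyclin per kilobase, with 21 to 58 counts per library. In control 2 it had 39 counts, more than the 31 of Ccnd1. Control libraries averaged 2.69 ± 0.713 CPM and knockouts 3.12 ± 1.16 (SD, n = 4 each). The log2 fold change of 0.20 (95% interval -0.64 to 1.04) became -0.03 without knockout 3 and -0.05 in limma-voom with quality weights, so its direction turned in these settings.

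Cdkn1a (ENSMUSG00000023067, chromosome 17 from 29090979 to 29100722), which encodes p21, the inhibitor that p53 switches on, was the most abundant member per kilobase. It measured 38.3, 57.1, 40.5 and 34.7 CPM in controls and 31.1, 21.2, 36.3 and 46.1 in the knockouts. The lowest 2 values were knockouts of set 1 and the highest was a control of set 1, yet knockout 4 lay above 3 of the 4 controls. The means of 42.7 ± 9.93 and 33.7 ± 10.4 (SD, n = 4 each) corresponded to a fitted log2 fold change of -0.34 (95% interval -0.88 to 0.19, adjusted p = 0.895, edgeR). The log2 ratio of means was -0.87 within set 1 and 0.13 within set 2.

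Cdkn1b (ENSMUSG00000003031, chromosome 6 from 134920401 to 134925513), which encodes p27, an inhibitor linked to cell cycle exit in differentiated cells, had the smallest spread relative to its mean. It measured 17.4, 13.8, 15.8 and 13.3 CPM in controls and 13.7, 10.1, 13.6 and 12.1 in the knockouts. The groups overlapped only between 13.3 and 13.7 CPM. The log2 fold change was -0.29 (95% interval -0.71 to 0.13, adjusted p = 0.881, edgeR), with -0.39 within set 1 and -0.18 within set 2. The exact permutation test, two-sided and unadjusted, gave p = 0.114, the lowest of the 8 tested members, which ranged up to 0.657. Each of these tests runs over the 70 ways to assign 4 and 4 labels.

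Among the Ink4 genes, Cdkn2b (ENSMUSG00000073802, chromosome 4 from 89306289 to 89311032), which encodes p15, measured 4.89, 3.25, 5.74 and 3.39 CPM in controls and 1.49, 1.67, 6.58 and 4.73 in the knockouts. Knockouts 1 and 2 were below every control, and knockout 3 was above every control. The log2 ratio of means was -1.37 within set 1 and 0.31 within set 2. The estimate over all libraries was -0.28 (95% interval -1.33 to 0.77, adjusted p = 0.976, edgeR). It was -0.0085 without knockout 1, -0.031 without knockout 2 and -0.72 without knockout 3 (adjusted p = 0.580), and with limma-voom, which weights libraries by their fit, it was -1.01 with an unadjusted p of 0.0225 and an adjusted p of 0.306.

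Cdkn2c (ENSMUSG00000028551), which encodes p18, was low, with 1.76, 1.11, 1.26 and 1.50 CPM in controls and 0.772, 3.91, 1.88 and 1.27 in the knockouts. Knockout 2, with 68 counts against 13 to 28 in the other 7 libraries, set the mean of its group. The log2 fold change of 0.47 (95% interval -0.67 to 1.62, adjusted p = 0.951, edgeR) was -0.13 without it. Cdkn2a (ENSMUSG00000044303, chromosome 4 from 89274471 to 89294653) had 1 count in control 1, 1 in control 4 and 0 in the other 6 libraries. Counts of 3 correspond to 0.172 to 0.352 CPM here, so both groups were at or under that floor and no fold is given. The count is of the whole gene and does not tell p16Ink4a from p19Arf.

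Myc (ENSMUSG00000022346, chromosome 15 from 61985391 to 61990374) measured 8.90, 9.92, 5.74 and 11.5 CPM in controls and 5.76, 8.96, 6.34 and 8.61 in the knockouts. Controls 2 and 4 lay above every knockout, and control 3 was the lowest library. The log2 fold change was -0.28 (95% interval -0.88 to 0.32, adjusted p = 0.939, edgeR), and -0.068 with a Y-linked covariate. Mycn (ENSMUSG00000037169), the family member best known from embryonic and neural tissue, had 2, 2, 6 and 3 counts in the controls and 13, 4, 1 and 1 in the knockouts. It was below the filter, and most of its knockout counts came from knockout 1.

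**Figure D3:**
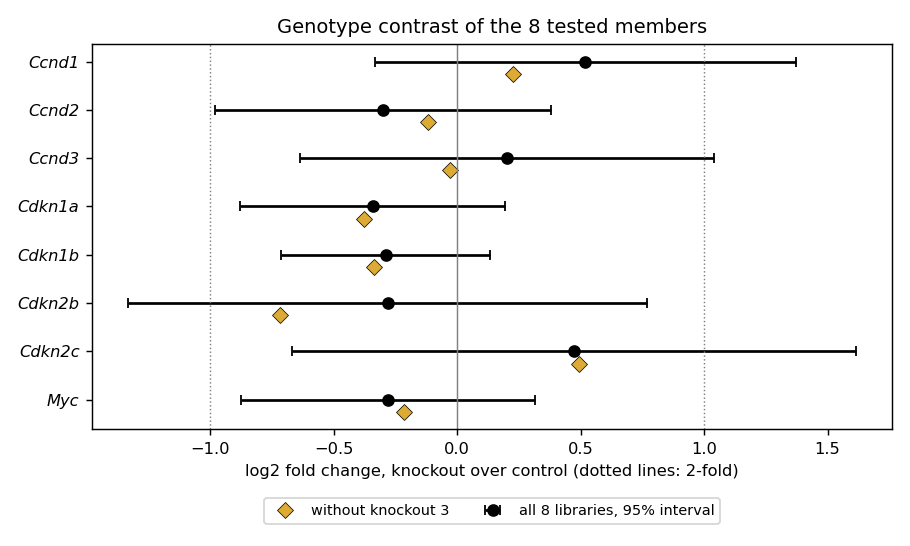
Log2 fold change of knockout over control (horizontal axis) for the 8 tested members, with black points and 95% intervals from all 8 libraries and yellow diamonds without knockout 3. Every interval covers 0, and those of Ccnd1, Ccnd3, Cdkn2b and Cdkn2c reach beyond a 2-fold difference.

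The intervals say what the 8 libraries could show. For Ccnd2, Cdkn1a, Cdkn1b and Myc, 4 members, the 95% interval lay within a 2-fold difference either way, with bounds from 0.506 to 1.30 as a fold for Ccnd2 and from 0.610 to 1.10 for Cdkn1b. For Ccnd1, Ccnd3, Cdkn2b and Cdkn2c it passed 2-fold on 1 side only. As a fold it ran from 0.794 to 2.59 for Ccnd1, 0.644 to 2.06 for Ccnd3 and 0.630 to 3.06 for Cdkn2c. For Cdkn2b it ran from 0.397 to 1.70. A 2-fold rise of Ccnd1, Ccnd3 and Cdkn2c and a 2-fold fall of Cdkn2b are thus neither shown nor bounded by these 8 libraries. In a bulk library, fewer cells that express a gene and less RNA per cell cannot be told apart.

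Per kilobase of merged exons, the level of Cdkn1a over all 8 libraries was 17.2 ± 4.75 CPM per kb (SD). It was higher than Ccnd2, the next gene at 3.95 ± 1.40, in 8 of 8 libraries (exact sign-flip permutation test, two-sided, adjusted p = 0.0281 over 9 neighbouring pairs). Ccnd2, Myc at 3.03 ± 0.770, Cdkn1b at 3.02 ± 0.484 and Cdkn2b at 2.85 ± 1.32 CPM per kb followed, and none of the neighbours among these 4 differed beyond their spread. Ccnd1 at 1.17 ± 0.520 was below Cdkn2b in 7 of 8 libraries. It was followed by Cdkn2c at 0.626 ± 0.359, Ccnd3 at 0.331 ± 0.105 and Mycn at 0.0850 ± 0.0749 CPM per kb, each below the one before it (adjusted p = 0.0281 for each pair, exact permutation test). Cdkn2a, at 0.0151 ± 0.0282, was not distinguishable from Mycn. The pairs were set by the order in these same libraries. With the longest transcript in place of merged exons, which shortens Ccnd3 from 8775 to 3858 bases, Ccnd3 moved above Cdkn2c, by 0.22 on the log2 scale.

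The genes whose level most resembled a leading member across the 8 libraries were found by Pearson's r of log2 CPM with each of the other 13438 tested genes, as a description over 8 points that share depth and library set. For Cdkn1a they were Bcar1 (r = 0.95), Cblb (0.94) and Ndufaf8 (0.93). For Ccnd2 they were Gm19620 (0.99), Ash1l (0.97) and Cap2 (0.96). Genes with an r above 0.9 numbered 13 for Cdkn1a and 59 for Ccnd2. Leaving out the 2 libraries farthest from the median of Cdkn1a lowered its r with Bcar1 to 0.69, while Ccnd2 and Gm19620 kept 0.99.

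The partners and targets of the members were read from lists of textbook genes. None of the 25 Cdk, Rb and E2f genes of G1 was past both cutoffs; 14 estimates were positive and 11 negative, with a median log2 fold change of 0.17 against 0.01 over all genes, and 2 of 25 had an unadjusted p under 0.05, a share close to the 6.88% of all genes. Cdk4, the kinase partner of the D-type cyclins, was 1 of them. It measured 26.6, 25.8 and 31.97 CPM in controls 1, 2 and 4, less than these in control 3 (234 counts), and 43.1, 35.1, 33.1 and 43.5 CPM in the knockouts. Every knockout was above every control, while the groups did not overlap for 4.52% of all genes. Its log2 fold change of 0.55 (standard error 0.18) had an unadjusted p of 0.0102 and an adjusted p of 0.479 (edgeR), and 0.62 without knockout 3 (adjusted p = 0.153). Of its exon bases 19.7% overlap Tspan31.

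Ccna2, the cyclin of S phase, was the other. It measured 10.7, 11.8, 12.8 and 6.31 CPM in controls and 13.1, 26.0, 21.7 and 13.2 in the knockouts, again without overlap, with a log2 fold change of 0.83 (adjusted p = 0.537, edgeR). Cdc25a, a phosphatase that activates Cdk2, was the only gene of this list with every knockout below every control, at 13.2 ± 1.09 CPM in controls and 9.99 ± 1.48 in the knockouts (adjusted p = 0.771, edgeR). Without knockout 3, 1 gene of the list, Cks1b, an adaptor of cyclin-Cdk complexes, was past both cutoffs with a log2 fold change of 1.21 (adjusted p = 0.0242, edgeR). Cks1b had 309, 355 and 226 counts in knockouts 1, 2 and 4, 93 to 104 in the controls and 24 in knockout 3, and with knockout 3 its adjusted p was 0.788. The remaining Cdk inhibitors, Cdkn1c and Cdkn2d, gave log2 fold changes between -0.21 and 0.00.

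Of 22 proliferation genes, 21 had a positive estimate, with a median log2 fold change of 0.61, and 0.64 without knockout 3. None was past both cutoffs, and 4 had an unadjusted p under 0.05, which is 18.2% against 6.88% of all genes. The largest of these were Rrm2, the ribonucleotide reductase subunit, at 1.39 (adjusted p = 0.581, edgeR) and Cdk1, the mitotic kinase, at 1.23 (adjusted p = 0.390). Rrm2 rested on knockout 3, at 33.1 CPM against 5.46 to 8.43 in the other knockouts, and was at 0.46 without it. Cdk1 measured 9.34, 3.49, 14.5 and 7.18 CPM in controls and 19.1, 24.9, 14.6 and 22.0 in the knockouts, so that the groups did not overlap but nearly met at control 3 and knockout 3. Birc5 was the other gene of this list without overlap, at 12.7 CPM in controls and 18.1 in the knockouts (log2 fold change 0.51, adjusted p = 0.66, edgeR). Without knockout 3, 11 of the 22 reached an unadjusted p under 0.05, as 1490 of all 13439 genes did, and 1, the spindle checkpoint kinase Bub1, was among the 126 genes then past both cutoffs, at 1.65 (adjusted p = 0.0142, edgeR). Bub1 had 1 count in knockout 3.

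Of 15 partners and rivals of Myc in its network, 8 estimates were positive and 7 negative, and none was past both cutoffs. An unadjusted p under 0.05 was reached by 2 (13.3%), against 6.88% of all genes. Mxd3, a Mad family repressor that competes with Myc for Max, had 2, 1, 2 and 6 counts in the controls and 19, 13, 15 and 19 in the knockouts, with a fitted log2 fold change of 2.42 on few counts (unadjusted p = 0.00254, adjusted p = 0.316, edgeR). Mlxipl, the glucose-sensing factor ChREBP, lay the other way, at 20.1, 16.5, 9.87 and 11.4 CPM in controls and 8.08, 3.73, 4.11 and 8.86 in the knockouts (log2 fold change -1.22, adjusted p = 0.368, edgeR). Neither gene overlapped between genotypes, which held for 4.52% of all genes, and Mxd3 and Mlxipl were named for their unadjusted p.

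Of 24 Myc targets, mostly genes of ribosome assembly and nucleotide supply, 17 had a positive and 7 a negative estimate. Their median was 0.15, or 0.07 without knockout 3. None was past both cutoffs and 2 had an unadjusted p under 0.05, which is 8.33% of the list, against 6.88% of all genes. Nop56, a nucleolar protein of small nucleolar ribonucleoproteins, was at 8.70 ± 2.02 CPM in controls and 16.2 ± 5.52 in the knockouts (log2 fold change 0.89, adjusted p = 0.450, edgeR). Dkc1, the pseudouridine synthase dyskerin, was at 0.47 (adjusted p = 0.671). The knockouts of Nop56 and of Odc1, the first enzyme of polyamine synthesis, were all above the controls, and those of Rrp9 were all below. Groups were apart in this way for 4.52% of all genes.

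Of the 19 p53 targets 17 were tested, 9 with a positive and 8 with a negative estimate, and none was past both cutoffs. An unadjusted p under 0.05 was reached by 2 (11.8%), against 6.88% of all genes. Pmaip1, which encodes the cell death protein Noxa, was at 3.64, 3.25, 0.987 and 3.79 CPM in controls and 8.14, 6.43, 12.1 and 6.19 in the knockouts (log2 fold change 1.47, adjusted p = 0.347, edgeR). Ccng1, cyclin G1, was at 37.2, 40.9, 43.4 and 39.4 CPM in controls and 23.6, 22.5, 16.3 and 33.8 in the knockouts (log2 fold change -0.74, adjusted p = 0.388, edgeR). Pmaip1 and Ccng1, which were named for their unadjusted p, had separate groups, in opposite directions. Groups did not overlap for 4.52% of all genes. Those of Cdkn1a, the best known p53 target, overlapped.

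**Figure D4:**
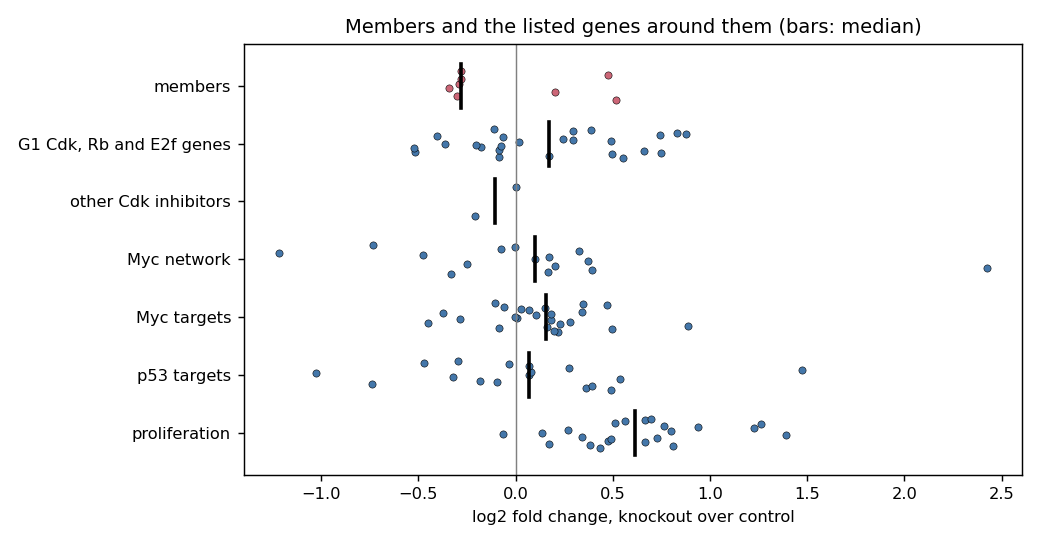
Log2 fold change of knockout over control (horizontal axis) of the tested genes in each list, 1 point per gene, with a bar at the median. The members have a median of -0.28 and the proliferation genes 0.61, with 21 of 22 above 0.

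Of the 11 Paneth cell markers, 7 estimates were negative, with a median of -0.09. None had an unadjusted p under 0.05, against 6.88% of all genes. Without knockout 3 the median was -0.59 and 4 had such a p, as did 1490 of all 13439 genes. Markers of other crypt cells also varied between libraries. The summed level of 11 enteroendocrine markers was 239 to 889 CPM in controls and 50.2 to 260 in the knockouts. All 11 estimates were negative, and 6 (54.5%) had an unadjusted p under 0.05, against 6.88% of all genes. The 10 tuft cell markers summed to 271 to 795 and 137 to 516 CPM. All 9 tested had a negative estimate, with a median of -0.88, and 1 (11.1%) had such a p. The 10 stem cell markers summed to 742 to 1568 and 293 to 1015 CPM. Of their 10 estimates 6 were negative, and 5 (50%) had an unadjusted p under 0.05, in either direction. The 10 enterocyte markers summed to 122 to 310 and 84.7 to 243 CPM, with 5 of 7 tested estimates negative. Such a p was found for 2 of them (28.6%), each lower in the knockouts, against 6.88% of all genes. The 10 goblet markers summed to 1975 to 4626 and 1824 to 4410 CPM, with 4 of 10 estimates negative. Here too 2 markers (20%) reached such a p, each lower in the knockouts, and the lowest log2 fold change was -5.05. No marker of these lists was past both cutoffs with all libraries, and 1, the stem cell marker Tnfrsf19, was without knockout 3 (log2 fold change 1.61, adjusted p = 0.0018, edgeR). At 10% false discovery rate 1 enteroendocrine marker, Neurod1, was lower in the knockouts (log2 fold change -2.27, adjusted p = 0.0629, edgeR). Proliferation genes summed to 169 to 302 CPM in controls and 212 to 450 in the knockouts. Immune markers summed to at most 15.0 CPM and stromal ones to at most 7.52 in a library. The part of these other cells in the values of the members was not tested.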

How the data were processed

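RNA of sorted Paneth cells from 4 control and 4 knockout mice was prepared with Smart-seq2, without molecular identifiers, so floors cover only the counting error of amplified reads, while the intervals of fold changes cover the spread between libraries. Groups are those of the labels. The authors aligned reads with GSNAP to mm10 and deposited raw counts per gene of uniquely mapped reads, made with featureCounts 1.6.3 on Ensembl release 92, without normalization. The deposited counts were used as they are, apart from 92 spike-in rows, which were left out.

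TMM factors and robust quasi-likelihood fits were computed with edgeR 4.0.16 in R 4.3.3 for the 13439 genes past filterByExpr (minimum count 10, minimum total 15), with Benjamini-Hochberg adjustment over all of them. Standard errors were approximated from the F statistic. The 95% intervals used the total degrees of freedom of the test, which add prior ones estimated across genes to the residual ones. CPM are per TMM-scaled library. Single genes were compared with exact permutation tests of log2 CPM with 0.5 counts added. Totals were 13037832 to 14380240 counts, and 3 counts are 0.172 to 0.352 CPM. Alternatives used DESeq2 1.42.0, limma 3.58.1, other scalings and filters, the library set as a block, a Y-linked covariate and each library left out; the shares with the longest transcript length were added after seeing the data. The main edgeR fit was also run on simulated counts with known changes, while the alternative fits were not.

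Named are all 10 members, and from each pathway list (not the cell type marker lists, which are given as sums and counts) the genes past both cutoffs, the 2 with the largest estimate in each direction at an unadjusted p under 0.05, and those that a small count calls for. The genes that separated the groups, those called without knockout 3 and Neurod1 were chosen after their values were seen. The members and lists were chosen with earlier results of these data known. The genes most like Myc in level are not reported here. Promoter windows are those of RefSeq on GRCm38.p6. Ccnd1, Ccnd2 and Myc had none in the table used. The methods call the genotypes littermates but the labels do not say which mice share a litter. A single animal number stands on both control 4 and knockout 4, and 1 mouse cannot have both genotypes, so that number or a label is in doubt. P-values of the fits set a group difference against the spread between these samples. Those of the permutation tests rank a difference among reassigned labels or signs.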

Additional observations from a re-analysis of the deposited data

How the results depend on the processing

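The limits are the 4 mice in each group, the low counts of Ccnd3, Cdkn2b and Cdkn2c, and knockout 3. No member was past both cutoffs in any of 17 alternative settings, and 133 of 136 alternative fold changes kept their direction. The exceptions were Ccnd3, at -0.049 with limma-voom and -0.028 without knockout 3, and Cdkn2c, at -0.13 without knockout 2; with each library left out Ccnd3 ranged from -0.028 to 0.36 and Cdkn2c from -0.13 to 0.75. The same range was 0.23 to 0.84 for Ccnd1, -0.53 to -0.087 for Ccnd2, -0.54 to -0.17 for Cdkn1a, -0.34 to -0.20 for Cdkn1b, -0.72 to -0.0085 for Cdkn2b and -0.44 to -0.14 for Myc. Over all genes, 25 were called in the analysis reported, 290 without a filter, 13 with at least 10 counts in every library, 138 with DESeq2's Wald test, 95 with limma-voom, 10 with the Y-linked covariate, 38 at 10% FDR, and with a library left out 10 (without control 3) to 126 (without knockout 3), where leaving out any control, knockout 2 or knockout 4 gave at most 16. The causes of these differences were not tested. The median over all genes stayed between -0.04 and 0.01 on the log2 scale.

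With the longest transcript 3 neighbouring pairs differed in level in place of 5, the ratio of Myc to Cdkn1b was 0.20 and that of Cdkn2c to Ccnd3 -0.22 on the log2 scale, and the Ccnd3 share of the D-type cyclins was 9.89%. With a library left out 0 to 4 pairs differed (3 without knockout 1, 4 without knockout 2, 0 otherwise), where 7 libraries allow only larger p-values, and the ratio of Myc to Cdkn1b, near 0 throughout, ranged from -0.10 to 0.080. No paired analysis was possible because the groups share only 1 animal number in the labels, that of control 4 and knockout 4, and the litters of the mice are not given.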
